A study of Mus musculus with 9 samples.

Results

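The comparison described here sets 3 mouse tumours with a floxed Yap1 allele, marked in the labels as rescued (YSGr), against 3 tumours without that allele (SG). Both groups carried fSMO-M2 and hGFAPcre, so SMO-M2, an always active mutant of Smoothened, the membrane protein that passes on the Hedgehog signal, is shared by the controls. YSGr carried fYap1 in addition. Tissue was taken at postnatal day 8 or 9, is recorded as MB, and was profiled by bulk RNA sequencing. The genes compared were all those with a log2 CPM (read counts scaled to the library's total, on a log2 scale) above 0 in at least 3 of the 9 libraries of the series, which gave 15251 of 17482 genes. They are described through 49 gene lists, of whose 1103 memberships 965 passed that filter, and every list size below counts tested genes. The 6 libraries stand beside 3 of another group, YSGnr, which has the alleles of YSGr, is marked non-rescued, and entered the fit for the estimate of spread. The labels do not say what rescue means, which part of Yap1 is flanked by loxP sites, or whether each library is a separate animal. The p-values therefore measure the spread between libraries, which may be technical. The hGFAPcre driver is active in neural progenitors and glia, so blood vessels, microglia and blood in the tissue are outside its reach, and the RNA of all cells was measured together.

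Granule neuron progenitors of the young cerebellum divide in response to Sonic hedgehog, then leave the cell cycle, migrate inward and become the small glutamatergic granule neurons that make up most neurons of the brain. Constant Smoothened activity keeps these progenitors dividing and gives rise to the Hedgehog type of medulloblastoma. YAP1 is the transcriptional coactivator at the end of the Hippo kinase cascade. It binds DNA through TEAD proteins, and in the cerebellum it is made by dividing granule neuron progenitors, neural stem cells and glia.

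Reads recovered from the deposited values summed to between 17.3 and 29.2 megareads (M) in the 6 libraries. Genes used as markers of the granule neuron lineage or of cycling cells were present in all of them. Zic1 stood between 9.66 and 10.51 log2 CPM, Zic2 between 7.82 and 8.62, Pax6 between 7.92 and 8.21 and Barhl1 between 7.38 and 9.0. Mycn ranged from 6.24 to 7.84 and Mki67 from 8.48 to 9.85. Gli1 ranged from 5.01 to 7.75 and Atoh1 from 3.34 to 6.89, with YSGr replicates 1 and 2 lowest for both. The SG libraries lay close together, with a median absolute log2 difference between pairs of 0.105 to 0.136. YSGr replicates 1 and 2 were as close, at 0.134, whereas YSGr replicate 3 differed from them by 0.445 and 0.472. A principal component holding 61.9% of the variance placed the SG libraries between -44.8 and -37.1, YSGr replicates 1 and 2 at 64.8 and 65.2, and YSGr replicate 3 at -3.84. In replicate 3 the difference from SG followed transcript length (Spearman's rho across genes -0.406) and GC content (0.397), against at most 0.153 and 0.0994 in replicates 1 and 2. YSGnr replicates 2 and 3 also followed length, at -0.523 and -0.504. The part of these 2 properties in the libraries' values was not tested beyond a fit with both trends removed. That fit gave 1957 genes at a limma adjusted p below 0.05 for YSGr against SG, compared with 1608 in the main fit. Of 1545 such genes of the main fit with a known length, 1252 (81%) kept call and direction. Results that rest on YSGr replicate 3 are also given without it. All 3 YSGr libraries had Xist at 9.81 or more and the Y-linked Ddx3y and Kdm5d at the lowest value of the table, -3.52, whereas the SG libraries had Xist at -0.77 or less and Ddx3y at 5.82 or more. All 4 tested Y-linked genes were called lower and Xist higher. The adjusted p-values of these 5 were 0.0559 to 0.0905 without 1 of SG replicates 1 to 3 or YSGr replicates 1 and 2. The difference of Xist hardly moved in those fits, at 11.28 to 11.63, and its adjusted p was 8.71e-06 with the 6 libraries alone and 2.44e-07 without YSGnr replicate 1. In these 6 libraries the sex-linked pattern and the group cannot be told apart. Of 8 other X-linked genes known to escape inactivation, such as Kdm6a and Ddx3x, the test called 0 at an adjusted p below 0.05 with limma and 2 at an unadjusted p below 0.05. Of all 15251 tested genes, 3987 had an unadjusted p below 0.05.

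Yap1 (ENSMUSG00000053110.13, chromosome 9, 7931999 to 8004596, GRCm38), the targeted gene, stood at 5.04, 5.11 and 5.03 log2 CPM in the SG libraries and at 4.44, 3.31 and 2.79 in the YSGr libraries. Every YSGr library was below every SG library, and YSGr replicate 1 was nearest to them. Since the floxed part is not given, these gene totals do not measure that part alone. Yap1 fell by 1.55 on the log2 scale (SE 0.38, limma adjusted p = 0.0327, n = 3 and 3). In a list of 25 core members of the Hippo pathway, 6 fell and 19 were not called (0 to 2 called without 1 of the core libraries and 12 without YSGr replicate 3 with 1 higher and 11 lower), with a median difference of -0.47 against -0.02 over all tested genes. The other 5 were Wwc1 (KIBRA, an upstream activator of the kinases), Tead1 (the DNA-binding partner), Amotl1 (angiomotin-like, which holds YAP1 outside the nucleus), Wwtr1 (TAZ, the paralog of YAP1) and Tjp1 (a tight junction protein). Tead1 was at 7.51, 7.37 and 7.35 in SG and at 6.44, 6.33 and 6.60 in YSGr, and fell by 0.96 (SE 0.21, adjusted p = 0.0216). Wwtr1 was at 5.66, 5.37 and 5.41 in SG and at 5.0, 4.75 and 4.74 in YSGr, and fell by 0.65 (SE 0.14, adjusted p = 0.0206). For all 6 genes, which were picked because they were called, the groups did not overlap. Over the 25 genes of the list the groups did not overlap for 1 gene higher and 10 lower. Among all 15251 tested genes this was so for 5615 (36.8%). The 24 tested genes listed as targets of YAP and TEAD did not move one way: Nt5e, Gadd45a and Myof rose, by 0.72 to 1.14, and Ajuba and Asap1 fell, with differences of -1.07 and -0.99 (0 to 1 called without 1 of the core libraries, 8 without YSGr replicate 3 with 4 higher and 4 lower and 3 to 4 without YSGnr replicate 2 or 3). Their median difference was -0.10. The widely used targets Ctgf and Cyr61, named after their values were seen, were not called, with differences of 0.71 (SE 0.40, adjusted p = 0.306) and -0.98 (SE 0.40, adjusted p = 0.159). The 11 calls named in this paragraph did not hold without 1 or more of the SG libraries, YSGr replicates 1 and 2, and YSGnr replicates 2 and 3, with adjusted p-values from 0.0513 to 0.182 in those fits. The call of Myof also ended with the 6 libraries alone (adjusted p = 0.0706), and that of Tjp1 with median scaling (adjusted p = 0.0504).

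The promoters of Yap1 and of 2 granule neuron genes that rose together are shown because the first belongs to the targeted gene and the others to 2 genes of the mature granule neuron list below that rose in every fit without 1 library. Each is the 250 bases before the RefSeq gene start, 5′ to 3′ on the gene's strand (RefSeq, GRCm38.p6). Capitals mark the core of the TEAD motif, GGAATG, or its reverse complement CATTCC. It was the only motif searched, on both strands.
Yap1 (chr9:8004597-8004846, minus strand): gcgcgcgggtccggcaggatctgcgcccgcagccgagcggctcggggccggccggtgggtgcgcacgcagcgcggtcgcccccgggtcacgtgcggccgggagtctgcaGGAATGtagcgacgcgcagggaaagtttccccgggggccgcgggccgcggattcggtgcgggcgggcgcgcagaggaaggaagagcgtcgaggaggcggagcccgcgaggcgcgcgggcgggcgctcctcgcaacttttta
Cbln3 (chr14:55884257-55884506, minus strand): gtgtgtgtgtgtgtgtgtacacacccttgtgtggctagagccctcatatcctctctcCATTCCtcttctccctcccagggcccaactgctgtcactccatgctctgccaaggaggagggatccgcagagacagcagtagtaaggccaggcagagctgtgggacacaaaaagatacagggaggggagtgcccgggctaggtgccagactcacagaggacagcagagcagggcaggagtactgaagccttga
Gabra6 (chr11:42321073-42321322, minus strand): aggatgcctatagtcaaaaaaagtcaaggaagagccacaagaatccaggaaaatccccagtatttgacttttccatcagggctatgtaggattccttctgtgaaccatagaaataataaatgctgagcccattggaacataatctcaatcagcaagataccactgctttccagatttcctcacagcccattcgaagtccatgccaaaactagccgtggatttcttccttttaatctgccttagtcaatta
The Yap1 window held 1 match, the Cbln3 window 1, on the other strand, and the Gabra6 window 0. Among windows of this length the motif was in 12.6% of all 32851 promoters of the RefSeq table, in 10.9% of those of tested genes, in 13.3% of those of genes that rose and in 9.87% of those of genes that fell. A promoter was matched by symbol for 10899 of the 15251 tested genes.

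Across all tested genes, 1608 (10.5%) had an adjusted p below 0.05 (limma, Benjamini-Hochberg over all tested genes) and are termed called, of which 1003 (6.58%) were higher and 605 (3.97%) lower in YSGr. At least a 2-fold change was seen for 569 of the genes that rose and 258 of those that fell. The median log2 difference was 1.08 among genes that rose and -0.91 among those that fell. The SG and YSGr libraries did not overlap for 5615 genes (36.8%), 2970 higher and 2645 lower. An unadjusted p below 0.05 with limma was seen for 3987 of the 15251 genes. Calls depended on single libraries. Leaving out an SG library gave 328, 345 and 417 calls (replicates 1, 2 and 3), and leaving out YSGr replicate 1 or 2 gave 400 and 359. Without YSGr replicate 3 the count was 4257 (27.9%), 2198 higher and 2059 lower, and without YSGnr replicate 1 the genes that fell numbered 956. A set of 289 genes (1.89%) was called in the full fit and in all 9 fits that left out 1 library, 217 higher and 72 lower. Below, SG replicates 1 to 3 and YSGr replicates 1 and 2 are called the core libraries, since leaving out any 1 of them lowered the count to 417 or fewer. Leaving out YSGnr replicate 2 or 3 lowered it less, to 1342 and 1365, and without YSGnr replicate 1 it was 2392. Among protein-coding genes 935 rose and 527 fell of 13380, and the 303 lincRNAs gave 6 that rose and 12 that fell.

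**Figure D1:**
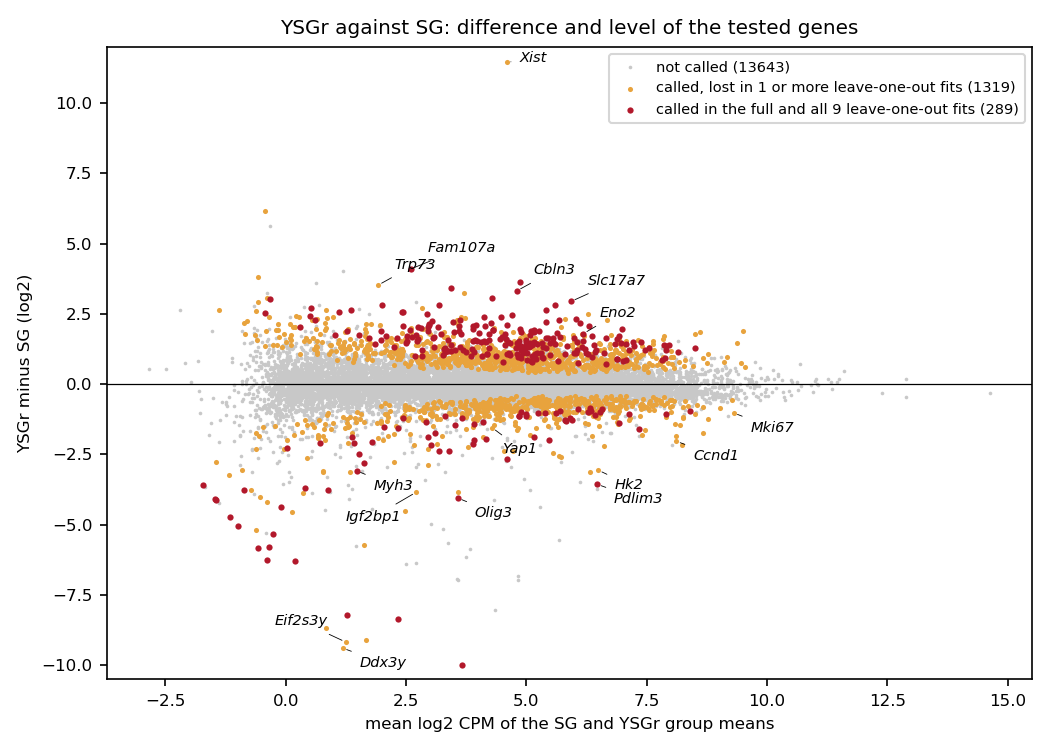
Difference between YSGr and SG (log2, vertical axis) against the mean log2 CPM of both group means (horizontal axis) for the 15251 tested genes, with 1 point per gene. Grey points were not called, orange points were called and lost in at least 1 fit without a library, and the 289 dark red points were called in the full fit and in all 9 such fits.

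The largest rises that held in all 9 of those fits were spread over several kinds of gene. Fam107a (chromosome 14, 8296274 to 8318023, GRCm38), an actin-associated gene that responds to stress and glucocorticoids, was at 0.50, 0.36 and 0.79 in the SG libraries and at 4.66, 4.98 and 4.32 in the YSGr libraries. All YSGr values lay far above all SG values, and the difference of 4.10 (SE 0.40, adjusted p = 0.00123) is a 17.2-fold rise. Mybpc3 (chromosome 2, 91118144 to 91136516, GRCm38), known as the cardiac myosin-binding protein C, was at 3.11, 3.01 and 3.02 and at 6.74, 7.01 and 6.25, a rise by 3.62 (SE 0.31, adjusted p = 0.000734). Phyhip, which encodes a brain protein that binds phytanoyl-CoA hydroxylase, rose by 2.83, Il16, a cytokine with a neuronal form, by 2.63, and Tuba4a, an alpha-tubulin, by 2.27. Lynx1, a membrane-anchored modulator of nicotinic receptors, rose by 2.08 (SE 0.14). Ly6d, Bcl2l15, Sypl2 and Colq, the collagen tail of acetylcholinesterase, rose by 3.02, 2.63, 2.57 and 2.56. Plac9a and Plac9b rose by 2.70 and 2.83, but they are near-identical neighbours and counting could have split reads between them.

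Among genes that fell in all 9 fits, Olig3 (chromosome 10, 19356533 to 19358604, GRCm38), a transcription factor of rhombic lip progenitors, was at 5.46, 5.79 and 5.57 in SG and at 1.51, 0.82 and 2.32 in YSGr. It fell by 4.06 (SE 0.38, adjusted p = 0.000998), with all YSGr libraries below 3 log2 CPM and all SG libraries above 5. Pitx3, a homeodomain factor, fell by 4.38 from SG values of 1.81, 2.10 and 2.35 to YSGr values of -2.16, -3.0 and -1.71. Pou3f4, a POU-domain factor of neural precursors, fell by 2.39 (SE 0.32). Pdlim3 (chromosome 8, 45885461 to 45919548, GRCm38), an actin-linked PDZ-LIM protein that is also used as a marker of Hedgehog-type medulloblastoma, was at 8.40, 8.24 and 8.12 in SG and at 4.17, 4.11 and 5.78 in YSGr. It fell by 3.57 (SE 0.43, adjusted p = 0.0029), and YSGr replicate 3 was the highest of its group. The collagen genes Col5a2 and Col11a1 and the collagen receptor gene Ddr2 fell, with differences of -1.28, -1.20 and -1.32. Slc6a11, a GABA transporter of astrocytes, fell by 1.61, the RhoA exchange factor Net1 by 1.87, the imprinted gene Zdbf2 by 2.0, Ralgps2 by 1.38, Thsd7a by 1.27 and the repulsive guidance molecule Rgma by 1.06. Slc14a2, Sdpr, Egfl6, Folh1, Fam115c, Dmrtb1 and Efcab7 fell, with differences between -3.71 and -2.07. Rbpsuh-rs3 fell by 2.38, and as a copy of Rbpj it may share reads with that gene.

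The 10 largest falls that held in all 9 fits were predicted genes and pseudogenes, which the naming rule leaves out and which were picked after their values were seen. Gm26825 (chromosome 5, 5781530 to 5783636, GRCm38), annotated as a lincRNA, was at 8.62, 8.69 and 8.67 in SG, at 0.29, -0.77 and -3.52 in YSGr and at -3.52, 0.34 and -3.52 in YSGnr. Gm9855, a processed pseudogene, was at 6.55, 6.47 and 6.51 in SG, at -1.46, -3.52 and -0.58 in YSGr and at 0.40, -0.24 and -1.52 in YSGnr. The 3 SG libraries were nearly equal for each, and all 6 libraries with fYap1 were below 1 log2 CPM. Of 210 processed pseudogenes tested, 18 fell and 1 rose, and 10 fell in all 9 fits against 0 that rose. Processed pseudogenes share sequence with their parent genes, so the counting of reads between copies is uncertain. The labels give no strain background for any group. Neither the counting nor the background was tested.

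Genes of mature granule neurons were higher in YSGr. In a list of 24, of which Calb2 and Pvalb are also listed for other neurons, 15 rose, each at least 2-fold, and 9 were not called (7 to 10 called without 1 of the core libraries). The median difference was 1.55, and the medians of YSGr replicates 1, 2 and 3 over the SG mean were 1.91, 1.91 and 0.84. Gabra6 (chromosome 11, 42306437 to 42321072, GRCm38), the GABA-A receptor subunit found almost only in granule neurons, was at 2.53, 2.77 and 2.96 in SG and at 5.86, 6.23 and 5.36 in YSGr. It rose by 3.06 (SE 0.25, adjusted p = 0.000734), with no overlap between the groups. Gabrd (chromosome 4, 155384980 to 155398112, GRCm38), its partner in extrasynaptic receptors, was at 1.86, 1.73 and 1.60 and at 5.24, 5.37 and 4.85. The rise was by 3.42 (SE 0.26, adjusted p = 0.000582). Cbln3 (chromosome 14, 55878913 to 55884392, GRCm38), a secreted organizer of parallel fibre synapses, was at 3.20, 3.10 and 3.13 in SG and at 6.39, 6.68 and 6.33 in YSGr, and rose by 3.32 (SE 0.18, adjusted p = 9.19e-05). The SE of Cbln3 was the smallest of these 3 genes. Grin2c, the NMDA receptor subunit of mature granule neurons, was at 3.02, 2.75 and 2.92 and at 4.88, 5.16 and 4.93, a rise by 2.09 (SE 0.21, adjusted p = 0.00129). Chn2, a Rac-regulating chimaerin, rose by 2.22 (SE 0.28). All of these calls held in every fit without 1 library, and without YSGr replicate 3 the differences were 3.29 for Gabra6, 3.58 for Gabrd and 3.39 for Cbln3.

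Receptor subunits as families moved less uniformly. Of 13 GABA-A receptor subunits, 3 rose, Gabra6 and Gabrd among them, and 10 were not called, with a family median of 0.44 (7 called without YSGr replicate 3). Of 17 ionotropic glutamate receptor subunits, Grin2c and Grin1 rose and 15 were not called (1 called without 1 of the core libraries, 6 without YSGr replicate 3 and 4 without YSGnr replicate 1). This called share of 11.8% was near the 10.5% of all tested genes. Grin1, the obligatory NMDA receptor subunit, was at 6.30, 6.09 and 6.52 in SG and at 7.72, 7.66 and 6.96 in YSGr, a rise by 1.14 (adjusted p = 0.0228), and YSGr replicate 3 was nearer to SG than to its group. In a list of 26 genes of earlier granule neuron differentiation, 4 rose and 22 were not called, with a median of 0.42 (1 called without 1 of the core libraries and 15 without YSGr replicate 3 with 14 higher and 1 lower). Rbfox3, which encodes the neuronal antigen NeuN, was at 7.23, 7.25 and 7.40 in SG and at 8.72, 8.65 and 8.20 in YSGr, and rose by 1.23 (SE 0.16, adjusted p = 0.0036). Neurod2, a factor of neuronal differentiation, rose by 1.40, and Stmn2 and Stmn3, which regulate microtubules, by 1.08 and 0.80. The calls of Grin1, Neurod2, Stmn2 and Stmn3 did not hold without 1 or more of the core libraries or YSGnr replicate 2, with adjusted p-values from 0.0564 to 0.139.

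**Figure D2:**
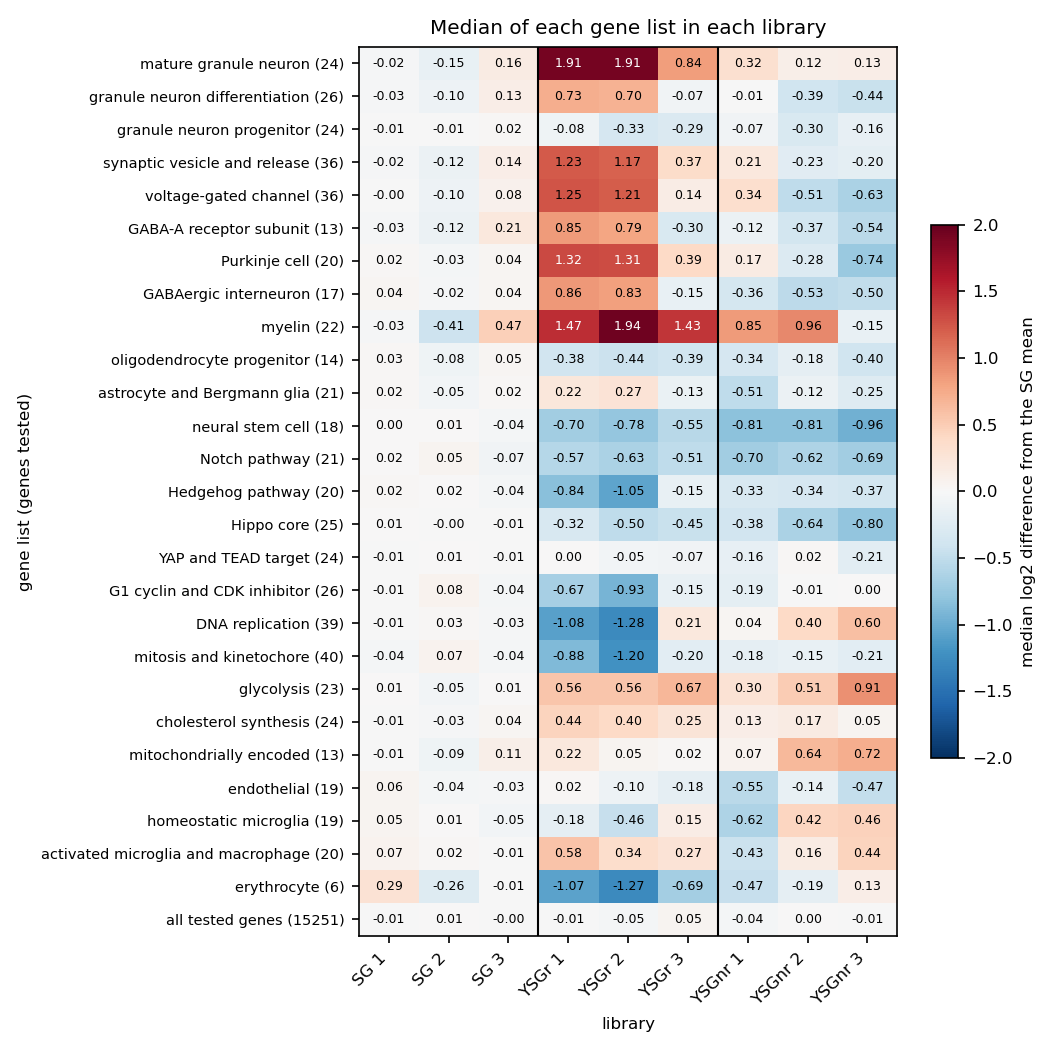
Median log2 difference from the SG mean over the tested genes of a selection of the lists (rows, with the number of genes) in each library (columns), printed in the cells and coloured from -2 to 2. The mature granule neuron list was at 1.91, 1.91 and 0.84 in YSGr replicates 1, 2 and 3, whereas the DNA replication list was at -1.08, -1.28 and 0.21.

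Genes of transmitter release were also higher. Of 36 genes of synaptic vesicles and release, 16 rose and 20 were not called, with a median of 0.94 (8 to 10 called without 1 of the core libraries and 28 without YSGr replicate 3). Slc17a7 (chromosome 7, 45163949 to 45176142, GRCm38), which loads glutamate into vesicles, was at 4.29, 4.05 and 5.03 in SG and at 7.39, 7.61 and 7.20 in YSGr. It rose by 2.94 (SE 0.33, adjusted p = 0.00204), and SG replicate 3 was the highest of its group. Syt4, a synaptotagmin, was at 4.88, 4.76 and 4.94 and at 7.51, 7.65 and 6.41, with replicate 3 the lowest YSGr value but above all SG values. Its rise was by 2.33 (SE 0.33, adjusted p = 0.00534). The vesicle proteins Syp and Sv2a rose by 1.40 and 1.35, and Rph3a (rabphilin) by 1.63. Those 5 calls held in every fit without 1 library.

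Of 36 voltage-gated channel genes, 11 rose and 25 were not called, with a median of 0.90 (2 to 3 called without 1 of the core libraries, 25 without YSGr replicate 3 and 17 without YSGnr replicate 1). Cacna2d3, a calcium channel accessory subunit, was at 4.19, 4.18 and 4.24 in SG and at 5.99, 6.05 and 5.26 in YSGr, a rise by 1.56 (SE 0.20, adjusted p = 0.00358). The pore-forming calcium channel genes Cacna1a and Cacna1g, which Purkinje cells also express strongly, rose by 1.56 and 1.54, the potassium channel gene Kcna1 by 1.74 and Scn2b by 1.99. The calls of Cacna1a, Cacna1g and Kcna1 did not hold without any 1 of the core libraries, and that of Scn2b without SG replicate 1, with adjusted p-values from 0.0529 to 0.135.

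Among other cerebellar neurons, Purkinje cell genes were higher and unipolar brush cell genes moved both ways. Interneuron genes were called at close to the share of all tested genes. Of 20 Purkinje cell genes, 7 rose, Foxp2 fell (named after its value was seen) and 12 were not called, with a median of 0.93 (17 called without YSGr replicate 3 with 16 higher and 1 lower). Pcp2, a Purkinje cell G protein modulator, was at 5.71, 5.70 and 5.70 in SG and at 7.08, 7.05 and 7.21 in YSGr. It rose by 1.41 (SE 0.15, adjusted p = 0.00169), and the 3 libraries of each group were nearly equal. Slc1a6, the Purkinje cell glutamate transporter, was at 5.46, 5.45 and 5.59 and at 7.09, 7.23 and 7.34, with replicate 3 the highest, and rose by 1.72 (SE 0.13, adjusted p = 0.000582). Ppp1r17 rose by 2.82, Rgs8 by 1.94, Pcp4 by 1.45 and the scaffold Homer3 by 0.72. These 6 calls held in every fit without 1 library, whereas the highest adjusted p of Foxp2 (fall by 1.12, adjusted p = 0.0206) over those fits was 0.0956, and its call was lost without any 1 of the core libraries. Fewer or more cells of a type and less or more RNA per cell cannot be told apart in tissue RNA, here or in the lists that follow. Of 17 GABAergic interneuron genes, Slc32a1, the vesicular GABA transporter, and Pvalb rose, by 1.18 and 1.01, and 15 were not called, a called share of 11.8% against 10.5% of all tested genes (0 called without 1 of the core libraries, 7 without YSGr replicate 3 and 1 without YSGnr replicate 2 or 3). Of 10 unipolar brush cell genes, 3 rose, among them Tbr1 by 2.04 and Calb2 by 1.20, the homeodomain factor Otx2 fell by 1.25 and 6 were not called (0 to 1 called without 1 of the core libraries, 7 without YSGr replicate 3 with 6 higher and 1 lower and 2 to 4 without YSGnr replicate 2 or 3). The calls of Slc32a1, Pvalb, Tbr1, Calb2 and Otx2 did not hold without 1 or more of the core libraries or YSGnr replicates 2 and 3, with adjusted p-values from 0.0544 to 0.154. The call of Pvalb ended with the 6 libraries alone (adjusted p = 0.0635) and that of Otx2 with no mean-variance trend (adjusted p = 0.0569).

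**Figure D3:**
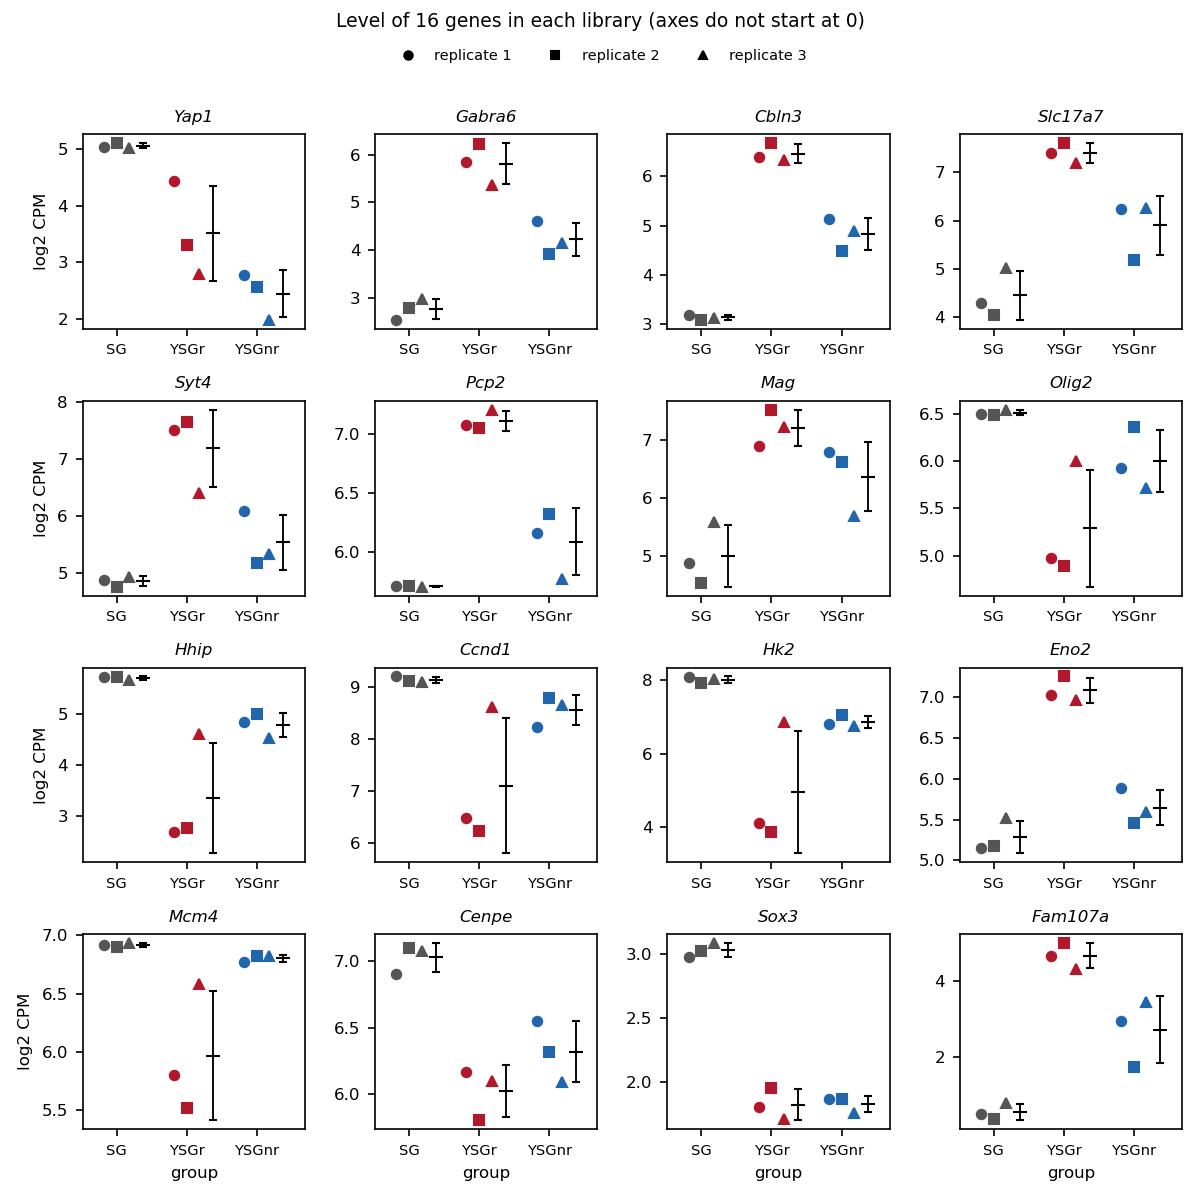
Log2 CPM of 16 genes in the 3 libraries of SG (grey), YSGr (red) and YSGnr (blue), with replicates 1, 2 and 3 as circles, squares and triangles and the group mean with its SD in black. Axes do not start at 0. Hk2, Ccnd1 and Hhip show YSGr replicate 3 well above replicates 1 and 2, whereas Pcp2, Cbln3 and Sox3 show the 3 YSGr libraries together.

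Of 22 myelin genes, 13 rose, each at least 2-fold, and 9 were not called, with a median of 1.57 (3 to 9 called without 1 of the core libraries). YSGr replicate 3 lay nearer to the SG mean than to the mean of YSGr replicates 1 and 2 at 2 of the 22, against 60.9% of all tested genes. The summed level of the list was 875 to 1500 CPM in the SG libraries and 2930 to 4470 CPM in the YSGr libraries. Mag (chromosome 7, 30899176 to 30914873, GRCm38), an adhesion protein of the inner myelin membrane, was at 4.90, 4.55 and 5.60 in SG and at 6.89, 7.51 and 7.22 in YSGr, a rise by 2.19 (SE 0.34, adjusted p = 0.0068). Cnp, a phosphodiesterase of myelinating cells, was at 7.16, 6.92 and 7.42 and at 8.37, 8.76 and 8.57, and rose by 1.40 (SE 0.17, adjusted p = 0.00268). Fa2h, which makes the hydroxylated lipids of myelin, rose by 2.21 (SE 0.36, adjusted p = 0.00801). In each of these, the YSGr libraries were all above the SG libraries and SG replicate 3 was the highest SG library. Mobp, Mog and Opalin rose by 2.27, 2.37 and 2.92. Of 14 oligodendrocyte progenitor genes, 4 fell and 10 were not called, 5 of the 14 had a group mean above SG, and the median was -0.43 (0 called without 1 of the core libraries and 10 without YSGr replicate 3 with 3 higher and 7 lower). Olig2 (chromosome 16, 91225457 to 91228677, GRCm38), a lineage factor also made by granule lineage tumour progenitors, was at 6.50, 6.49 and 6.54 in SG and at 4.98, 4.90 and 6.0 in YSGr. It fell by 1.22 (SE 0.28, adjusted p = 0.0277), and without YSGr replicate 3, which stood nearest to SG, by 1.57 (adjusted p = 0.000574). Olig1 fell by 1.22, the phosphatase Ptprz1 by 1.08 and the proteoglycan Cspg4 by 0.74. The 7 calls of Mobp, Mog, Opalin and these 4 genes did not hold without 1 or more of the core libraries or YSGnr replicates 2 and 3, with adjusted p-values from 0.0537 to 0.154. That of Ptprz1 ended with the 6 libraries alone (adjusted p = 0.0531) and that of Cspg4 with no mean-variance trend (adjusted p = 0.0529).

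Astrocyte and Bergmann glia genes did not move as a group, with 3 that rose, 1 that fell and 17 not called of 21, and a median of 0.06 (1 to 2 called without 1 of the core libraries and 7 without YSGnr replicate 1). Hopx, a homeodomain-only factor of Bergmann glia and their precursors, was at 4.88, 4.92 and 4.86 in SG and at 6.41, 6.41 and 6.11 in YSGr. It rose by 1.42 (SE 0.14, adjusted p = 0.00129) in the full fit, and the call held without any 1 library. Gfap, the astrocyte intermediate filament, was at 7.03, 6.81 and 7.17 and at 9.03, 8.96 and 8.16, a rise by 1.71 (SE 0.37, adjusted p = 0.0229). Aldoc, the aldolase of astrocytes and some Purkinje cells, rose by 1.06, and Fgfr3, a growth factor receptor of astrocyte precursors, fell by 0.84. The calls of Gfap, Aldoc and Fgfr3 did not hold without 1 or more of the core libraries, with adjusted p-values from 0.0705 to 0.108.

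Hedgehog pathway genes were lower. Of 20, 5 fell and 15 were not called, with a median of -0.68, and without YSGr replicate 3 it was 13 that fell, with a median of -0.97. Without any 1 of the core libraries limma called 0. In the full fit 11 of the 20 had an unadjusted p below 0.05, against 3987 of all 15251 tested genes. YSGr replicate 3 lay nearer to the SG mean than to the mean of replicates 1 and 2 at 18 of the 20. Hhip (chromosome 8, 79965851 to 80058006, GRCm38), an inhibitor that binds Hedgehog ligands and is induced by the pathway, was at 5.73, 5.74 and 5.68 in SG and at 2.67, 2.76 and 4.61 in YSGr. It fell by 2.37 (SE 0.44, adjusted p = 0.0136), and without replicate 3 by 3.0 (adjusted p = 1.91e-05). Ptch1 (chromosome 13, 63508328 to 63573598, GRCm38), the receptor that the pathway also induces, was at 9.24, 8.91 and 8.91 and at 6.77, 6.53 and 8.27. It fell by 1.83 (SE 0.41, adjusted p = 0.0244), and by 2.37 (adjusted p = 0.000293) without replicate 3. Kif7, the ciliary kinesin of the pathway, and Gli3, its transcriptional repressor, fell by 0.87 and 0.78. The activator Gli1 was at 7.65, 7.75 and 7.48 in SG and at 5.12, 5.01 and 7.57 in YSGr. Replicates 1 and 2 were low and replicate 3 was within the SG range, and the difference of -1.72 (SE 0.56) was not called (adjusted p = 0.0838). Atoh1, the factor that defines granule neuron progenitors, was at 5.89, 6.76 and 6.15 in SG and at 3.89, 3.34 and 6.89 in YSGr (adjusted p = 0.226), with replicate 3 above all SG libraries. Both were among the tissue markers above. Without replicate 3 the differences were -2.56 for Gli1 (adjusted p = 1.59e-05) and -2.65 for Atoh1 (adjusted p = 0.000336). In a list of 24 granule neuron progenitor genes only Olig3 was called (1 to 2 called without 1 of the core libraries, 7 without YSGr replicate 3, 4 without YSGnr replicate 1 and 1 to 2 without YSGnr replicate 2 or 3). The calls of Hhip, Ptch1, Kif7, Gli3 and the pathway's target Ccnd1 did not hold without 1 or more of the core libraries or YSGnr replicates 2 and 3, with adjusted p-values from 0.0526 to 0.144. With the 6 libraries alone the adjusted p was 0.0512 for Kif7 and 0.0692 for Ccnd1.

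Cell cycle genes were lower, most of all in YSGr replicates 1 and 2. Ccnd1 (chromosome 7, 144929931 to 144939925, GRCm38), the G1 cyclin, was at 9.20, 9.11 and 9.09 in SG and at 6.47, 6.22 and 8.60 in YSGr. Its kinase partner Cdk6 was at 7.01, 6.65 and 6.68 and at 3.63, 3.36 and 6.0. For both, YSGr replicates 1 and 2 stood far below SG and replicate 3 stood near it. Ccnd1 fell by 2.03 (SE 0.52, adjusted p = 0.0385) and Cdk6 fell by 2.45 (SE 0.58, adjusted p = 0.0295). Without replicate 3 the falls were by 2.79 (adjusted p = 6.18e-05) and by 3.29 (adjusted p = 6.18e-05). Rbl1, a retinoblastoma family member, fell by 0.91, and Cdkn1a, the CDK inhibitor p21, rose by 0.48, so that of 26 G1 genes 1 rose, 3 fell and 22 were not called (0 called without 1 of the core libraries, 16 without YSGr replicate 3 with 1 higher and 15 lower, 8 without YSGnr replicate 1 and 2 without YSGnr replicate 2 or 3).

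Of 39 DNA replication genes, 7 fell and 32 were not called, with a median of -0.72 (0 to 2 called without 1 of the core libraries and 37 without YSGr replicate 3). YSGr replicates 1 and 2 had list medians of -1.08 and -1.28 against 0.21 for replicate 3, which was nearer to SG than to its group at 37 of the 39 genes. Mcm4, a subunit of the replicative helicase, was at 6.91, 6.90 and 6.93 in SG and at 5.80, 5.52 and 6.59 in YSGr, and fell by 0.95 (SE 0.23, adjusted p = 0.0342). Pola1, the priming polymerase, fell by 1.28, Dtl by 1.23, Clspn by 0.97, Hells by 0.92 and Rrm2, a subunit of ribonucleotide reductase, by 0.84. Of 40 genes of mitosis and the kinetochore, 16 fell and 24 were not called, with a median of -0.78, and all 40 fell without YSGr replicate 3 (1 to 4 were called without 1 of the core libraries). Cenpe (chromosome 3, 135212537 to 135273611, GRCm38), a kinetochore motor, was at 6.91, 7.10 and 7.08 in SG and at 6.17, 5.81 and 6.10 in YSGr. It fell by 1.0 (SE 0.16, adjusted p = 0.00722), with all 3 YSGr libraries below SG, and its call held without any 1 library. Mki67, the antigen of cycling cells, was at 9.84, 9.76 and 9.85 and at 8.96, 8.48 and 8.94, and fell by 1.02 (SE 0.19, adjusted p = 0.0141). Kif15, Smc2, Bub1 and Casc5 fell, with differences of -1.10, -1.14, -1.0 and -1.07.

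The 15 cell cycle calls other than Cenpe did not hold without 1 or more of the core libraries or YSGnr replicates 2 and 3, with adjusted p-values from 0.0504 to 0.171. Those of Rbl1, Hells, Smc2 and Cdkn1a ended when the length and GC trend was removed (adjusted p-values 0.0679, 0.0805, 0.115 and 0.126), and those of Cdk6 and Mcm4 with the 6 libraries alone (0.0563 and 0.0613).

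**Figure D4:**
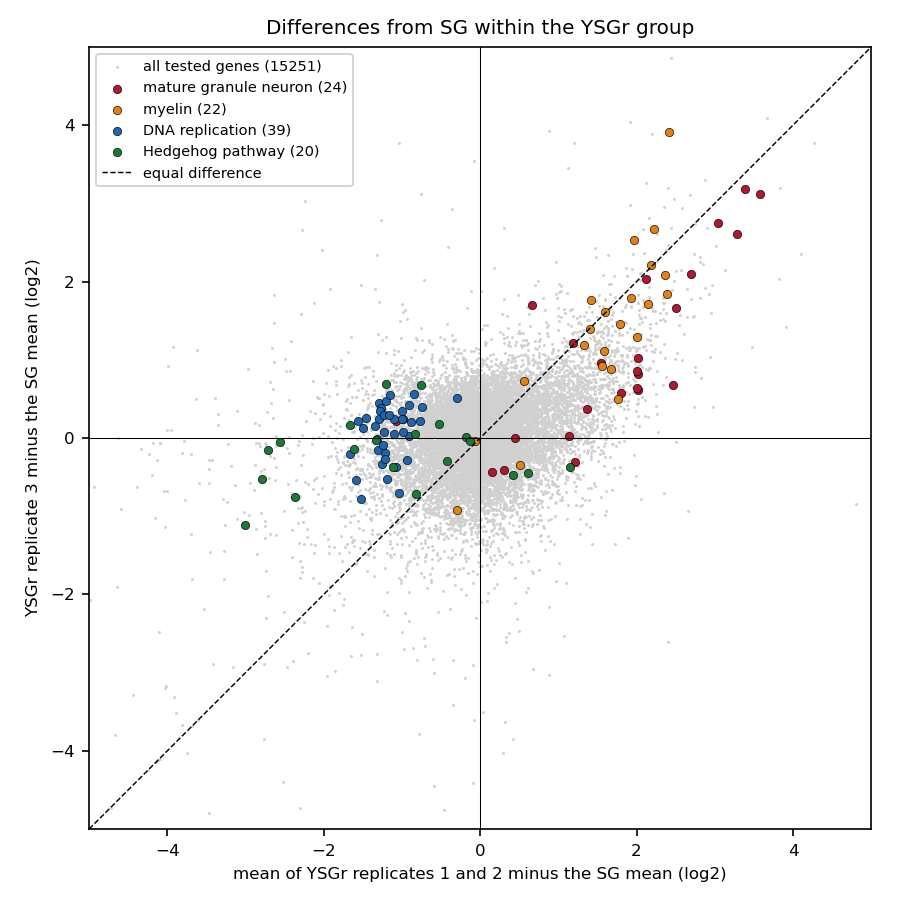
Difference from the SG mean (log2) in YSGr replicate 3 (vertical axis) against the mean difference of YSGr replicates 1 and 2 (horizontal axis), with 1 point per tested gene, 4 lists in colour and a dashed line of equal difference. Genes beyond 5 log2 units are outside the axes. DNA replication genes (blue) lie left of 0 and near or above 0 on the vertical axis, and myelin genes (orange) lie near the dashed line.

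Neural stem cell and Notch genes had medians below SG in all 3 YSGr libraries. Of 18 stem cell genes, 5 fell and 13 were not called (1 to 2 called without 1 of the core libraries and 12 without YSGr replicate 3 with 1 higher and 11 lower), with a median of -0.60 and library medians of -0.70, -0.78 and -0.55. Sox3 (chromosome X, 60891366 to 60893430, GRCm38) was at 2.98, 3.03 and 3.09 in SG and at 1.81, 1.96 and 1.72 in YSGr, and fell by 1.20 (SE 0.17, adjusted p = 0.00509) that held without any 1 library. Its relatives in the SOXB1 family of stem cell factors were Sox2, at 6.15, 6.16 and 6.17 and at 5.37, 5.31 and 5.06, and Sox1, at 7.50, 7.16 and 7.20 and at 4.85, 4.81 and 6.70. Sox2 fell by 0.91 (SE 0.17, adjusted p = 0.0149) and Sox1 by 1.83 (SE 0.43, adjusted p = 0.0299). The YSGr libraries were close together for Sox2 and Sox3, whereas for Sox1 replicate 3 was near SG. Nes, the intermediate filament of stem cells, fell by 1.49. Of 21 Notch pathway genes, 5 fell and 16 were not called, with a median of -0.60 and library medians of -0.57, -0.63 and -0.51 (1 to 2 called without 1 of the core libraries, 12 without YSGr replicate 3 with 1 higher and 11 lower and 8 without YSGnr replicate 1). Nrarp, a feedback inhibitor induced by Notch, was at 5.36, 5.53 and 5.36 and at 4.18, 4.20 and 4.51, and fell by 1.12 (SE 0.16, adjusted p = 0.00545), also without any 1 library. The ligand Jag1 fell by 1.64, the glycosyltransferase Lfng by 1.48, and the effector genes Heyl and Hes5 by 1.01 and 0.88. The 7 other calls of this paragraph did not hold without 1 or more of the core libraries, with adjusted p-values from 0.0531 to 0.14, and with the 6 libraries alone the adjusted p of Sox1 was 0.0579.

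Of the oncofetal RNA-binding and chromatin list (19 genes), 4 fell and 15 were not called, with a median of -0.23 (0 called without 1 of the core libraries and 8 without YSGr replicate 3). Igf2bp1 (chromosome 11, 95957163 to 96005940, GRCm38), an oncofetal RNA-binding protein, was at 4.60, 4.82 and 4.49 in SG and at -0.66, -0.56 and 3.58 in YSGr. Replicates 1 and 2 were below 0 and replicate 3 was near SG. It fell by 3.85 (SE 0.94, adjusted p = 0.0336), and by 5.24 (adjusted p = 1.69e-05) without replicate 3. Its relative Igf2bp3, the histone methyltransferase Ezh2 and the DNA methyltransferase Dnmt1 fell by 1.87, 0.81 and 0.66. Of 15 insulin-like growth factor genes, Igfbp6 rose by 1.97, and the adaptor Irs1 and the imprinted H19 fell by 1.62 and 0.91, with 12 not called and a median of -0.14 (0 to 1 called without 1 of the core libraries and 7 without YSGr replicate 3 with 4 higher and 3 lower).

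Near the 10.5% of all tested genes, 12.9% of the Wnt pathway and 7.14% of the BMP and TGF-beta pathway genes were called. In the Wnt pathway (31 genes), Wnt7a rose by 0.67 and Rnf43, Wnt7b and the receptor Fzd1 fell by 1.22, 0.74 and 0.72 (0 to 1 called without 1 of the core libraries and 13 without YSGr replicate 3 with 3 higher and 10 lower). In the BMP and TGF-beta pathway (28 genes), Bmp5 rose by 1.22 and Tgfbr1, a type I receptor, fell (1 to 2 called without 1 of the core libraries, 10 without YSGr replicate 3 with 7 higher and 3 lower, 5 without YSGnr replicate 1 and 1 to 2 without YSGnr replicate 2 or 3). Tgfbr1 was at 6.16, 6.07 and 6.17 in SG and at 5.33, 4.96 and 4.97 in YSGr, and fell by 1.05 (SE 0.16, adjusted p = 0.00637), and that call held without any 1 library. The 12 calls of Igf2bp1, Igf2bp3, Ezh2, Dnmt1, Igfbp6, Irs1, H19, Wnt7a, Rnf43, Wnt7b, Fzd1 and Bmp5 did not hold without 1 or more of the core libraries or YSGnr replicates 2 and 3, with adjusted p-values from 0.0505 to 0.183. With the 6 libraries alone the adjusted p of Igf2bp1 was 0.0644 and of H19 0.0595, and with no mean-variance trend that of Wnt7b was 0.0561.

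Axon guidance genes moved both ways, with 3 that rose, 5 that fell and 38 not called of 46 (1 to 2 called without 1 of the core libraries, 18 without YSGr replicate 3 with 10 higher and 8 lower and 14 without YSGnr replicate 1). The repellent Slit1 was at 3.88, 3.78 and 4.04 in SG and at 1.42, 2.05 and 2.54 in YSGr, and fell by 1.89 (SE 0.31, adjusted p = 0.00802), a call that held without any 1 library. Dcc, the netrin receptor, fell by 1.40 and the ephrin receptor Epha5 by 0.96. Unc5b, the other class of netrin receptor, rose by 1.52, Ephb1 by 1.52 and the semaphorin Sema4d by 1.0. The 5 calls named here other than Slit1 did not hold without 1 or more of the core libraries or YSGnr replicate 2, with adjusted p-values from 0.0502 to 0.148.

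Of 23 glycolytic genes, 10 rose, the hexokinase gene Hk2 fell and 12 were not called, with a median of 0.52 (2 to 4 called without 1 of the core libraries and 7 to 9 without YSGnr replicate 2 or 3). Hk2 (chromosome 6, 82725025 to 82774454, GRCm38), the inducible hexokinase of progenitors, was at 8.11, 7.93 and 8.03 in SG and at 4.13, 3.87 and 6.88 in YSGr. Replicates 1 and 2 were low and replicate 3 between them and SG. It fell by 3.06 (SE 0.64, adjusted p = 0.0202), and by 4.02 (adjusted p = 2.85e-06) without replicate 3. Hk1, the constitutive form, was at 6.19, 6.12 and 6.48 and at 7.60, 7.59 and 6.78, and rose by 1.06 (SE 0.22, adjusted p = 0.0204). Eno2 (chromosome 6, 124760053 to 124769673, GRCm38), the neuronal enolase, was at 5.16, 5.18 and 5.51 and at 7.03, 7.25 and 6.96, a rise by 1.80 (SE 0.16, adjusted p = 0.000918). Tpi1, the triosephosphate isomerase, rose by 1.23 (SE 0.20), and the lactate exporter Slc16a3 by 1.01. Of 24 genes of cholesterol synthesis, 6 rose, by 0.41 to 1.04, and 18 were not called, with a median of 0.43 (1 called without 1 of the core libraries, 12 without YSGr replicate 3 and 3 without YSGnr replicate 2 or 3). Mvd, the mevalonate decarboxylase, was at 4.96, 4.95 and 5.02 and at 6.22, 6.02 and 5.81, a rise by 1.04 (SE 0.14, adjusted p = 0.00387). Tm7sf2, Sqle, Fdft1 and Dhcr7 rose by less. The calls of Eno2, Tpi1 and Mvd held without any 1 library, and those of Hk2, Hk1, Slc16a3, Tm7sf2, Sqle, Fdft1 and Dhcr7 did not without 1 or more of the core libraries or YSGnr replicates 2 and 3, with adjusted p-values from 0.0526 to 0.181. The calls of Slc16a3 and Dhcr7 ended when the length and GC trend was removed (adjusted p-values 0.0608 and 0.0955), and those of Sqle and Fdft1 with no mean-variance trend (0.061 and 0.0677). Of the 13 protein genes encoded by mitochondrial DNA, limma called 0, with 0 at an unadjusted p below 0.05 against 3987 of all 15251 tested genes.

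**Figure D5:**
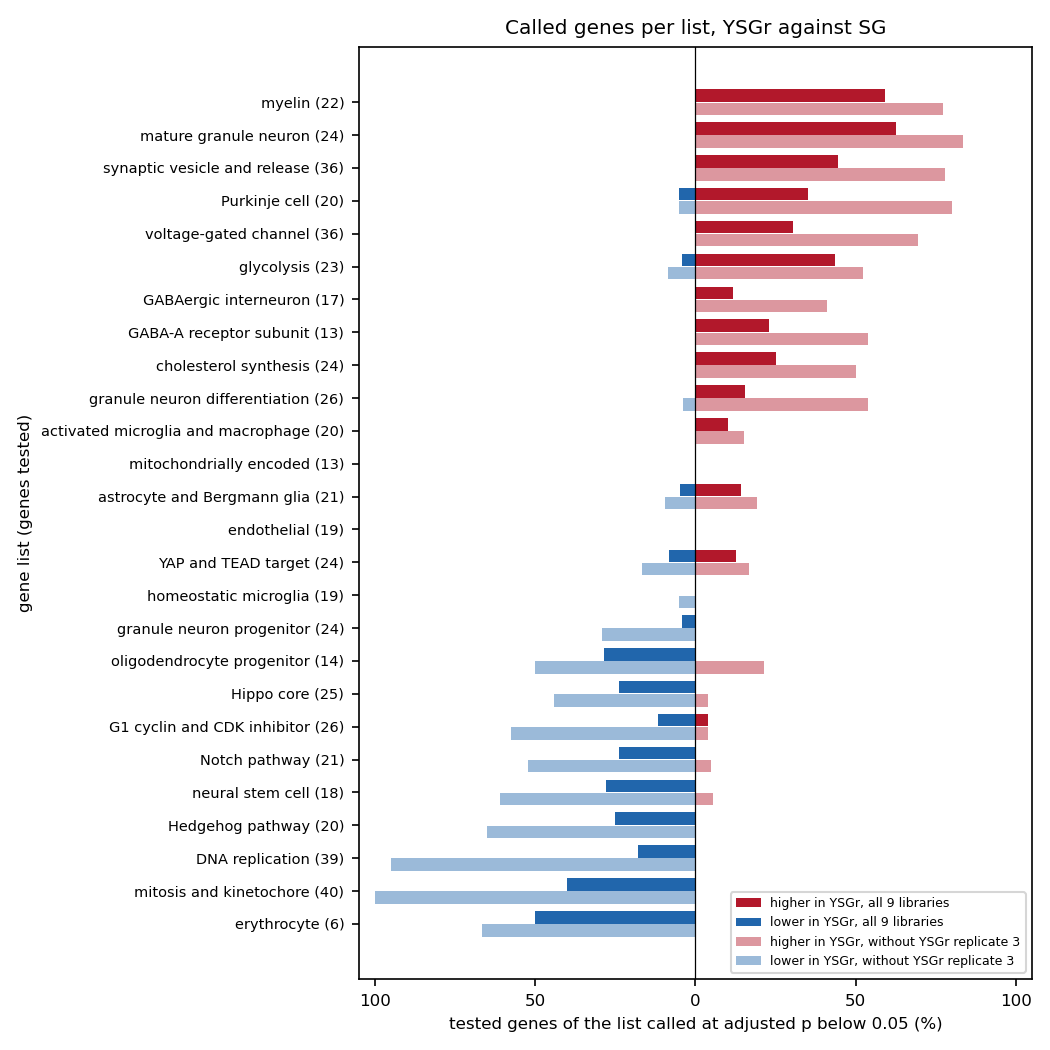
Share of the tested genes of each list (number in parentheses) called higher (red, right) or lower (blue, left) in YSGr at an adjusted p below 0.05, with all 9 libraries (solid) and without YSGr replicate 3 (pale). The lists drawn are a selection that was not made by size. Those left out include the sex-linked, axon guidance (46 genes), Wnt pathway (31) and BMP and TGF-beta pathway (28) lists. The order is that of the median difference, from myelin and mature granule neuron at the top to erythrocyte at the bottom.

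Stress and activity lists differed. Called shares were 25% of the glucocorticoid-responsive, 16.7% of the immediate early and 10% of the p53 genes, against 10.5% of all tested genes. The immediate early gene Egr1 was at 5.72, 4.12 and 5.05 in SG and at 2.68, 2.63 and 3.18 in YSGr. It fell by 2.13 (SE 0.35, adjusted p = 0.00825) in all 9 fits, and the SG libraries were more spread than the YSGr libraries. Of 18 immediate early genes, Ier2 also fell, by 0.81, and Egr4 rose, by 1.90 (1 called without 1 of the core libraries and 5 without YSGr replicate 3 with 1 higher and 4 lower). Of 16 glucocorticoid-responsive genes, 4 rose, among them Fam107a, Klf9 by 1.09 and Hsd11b1, which activates the hormone, by 1.79 (2 called without 1 of the core libraries, 8 without YSGr replicate 3 with 6 higher and 2 lower and 7 without YSGnr replicate 1). The list's median difference was 0.40, with medians of 0.47, 0.43 and 0.35 in YSGr replicates 1, 2 and 3. Of the 16 genes, 12 had a group mean above SG and 4 below. Of 20 genes of the p53 family and its targets, Trp73 and Cdkn1a rose (0 to 1 called without 1 of the core libraries, 5 without YSGr replicate 3 with 2 higher and 3 lower and 1 to 2 without YSGnr replicate 2 or 3). Trp73, the p53 relative p73, was at 0.38, -0.36 and 0.45 in SG and at 4.06, 4.46 and 2.51 in YSGr, a rise by 3.52 (SE 0.61, adjusted p = 0.0104), with replicate 3 the lowest YSGr library. The calls of Ier2, Egr4, Klf9, Hsd11b1, Cdkn1a and Trp73 did not hold without 1 or more of the core libraries or YSGnr replicates 2 and 3, with adjusted p-values from 0.0502 to 0.171. With a pseudocount of 1 CPM the adjusted p of Egr4 was 0.062.

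The called share of the immune lists ran from 0 to 14.3%, against 10.5% of all tested genes. In microglia of the resting state (19 genes) limma called 0, with 2 at an unadjusted p below 0.05, and P2ry12, a purine receptor of these cells, was at 3.88, 3.61 and 3.83 in SG and at 2.90, 2.70 and 2.59 in YSGr, a difference of -1.05 (SE 0.35, adjusted p = 0.0917). The groups did not overlap for P2ry12. In MHC class I presentation (18 genes) it called 0, with 2 at an unadjusted p below 0.05, and in 7 neutrophil genes 0, with 1. Without YSGr replicate 3 these 3 lists gave 1, 2 and 1 calls. In the full fit 3987 of all 15251 tested genes had an unadjusted p below 0.05. Of 20 lymphocyte markers 6 were in the table and 1, Cd4, was tested and not called, with 0 at an unadjusted p below 0.05. The 6 summed to 3.94 to 4.68 CPM in SG and 3.68 to 5.13 CPM in YSGr. Among 20 genes of activated microglia and macrophages, Clec7a and Gpnmb rose by 2.02 and 2.0 (0 called without 1 of the core libraries and 4 without YSGnr replicate 1), and among 7 MHC class II genes Ifi30, a lysosomal thiol reductase, rose by 0.70 (0 called without 1 of the core libraries and 0 without YSGnr replicate 2 or 3). Among 18 chemokine genes, the chemokine-binding receptor Ackr1 and Ccl27a rose by 1.65 and 0.97 (0 to 2 called without 1 of the core libraries), and among 18 complement genes the inhibitor Serping1 rose by 1.02 (0 called without 1 of the core libraries, 4 without YSGr replicate 3, 2 without YSGnr replicate 1 and 1 to 2 without YSGnr replicate 2 or 3). Of 15 interferon-response genes, Rsad2 and Ifit2 fell (1 called without 1 of the core libraries). Rsad2 (viperin) was at 1.65, 1.71 and 1.93 in SG and at -0.66, -0.63 and 0.24 in YSGr, and fell by 2.11 (SE 0.31, adjusted p = 0.00599), and Ifit2 fell by 1.22. Of 12 immune checkpoint genes, the ligand Cd276 was the 1 called, with a difference of -0.56 (0 called without 1 of the core libraries, 5 without YSGr replicate 3 with 3 higher and 2 lower and 0 to 1 without YSGnr replicate 2 or 3). The call of Rsad2 held without any 1 library. The other 8 did not without 1 or more of the core libraries or YSGnr replicates 2 and 3, with adjusted p-values from 0.0503 to 0.18, and those of Ifi30 and Ccl27a ended when the length and GC trend was removed (adjusted p-values 0.0834 and 0.054).

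Markers of other cells in the tissue were checked in the same way. Called shares were 0% for endothelial, 11.1% for mural cell and fibroblast and 12.5% for choroid plexus and ependyma genes. They were 25% for muscle and 50% for erythrocyte genes, against 10.5% of all tested genes. In 19 endothelial genes limma called 0, and the median difference was -0.02. Of the 19, 1 had an unadjusted p below 0.05, against 3987 of all 15251 tested genes. The endothelial list summed to 455 to 499 CPM in SG and 431 to 479 CPM in YSGr. Of 18 mural cell and fibroblast genes, Dcn (decorin) rose by 0.85 and Cspg4, also an oligodendrocyte progenitor gene, fell (0 to 1 called without 1 of the core libraries, 4 without YSGr replicate 3 with 2 higher and 2 lower and 1 to 2 without YSGnr replicate 2 or 3). Of 6 tested erythrocyte genes, the globins Hba-a1 and Hbb-bs and the heme enzyme Alas2 fell by 1.17, 0.99 and 1.25 (0 to 1 called without 1 of the core libraries), and all 6 had a group mean below SG. The erythrocyte list summed to 779 to 1120 CPM in the SG libraries and 343 to 601 CPM in the YSGr libraries. Of 16 choroid plexus and ependyma genes, Otx2 and the ciliary factor Rfx2 fell, the latter by 0.82 (0 to 1 called without 1 of the core libraries, 4 without YSGr replicate 3 and 1 to 2 without YSGnr replicate 2 or 3). Ttr, the abundant transport protein of choroid plexus, was at 7.33, 9.12 and 8.90 in SG and at -1.01, 9.86 and -0.19 in YSGr. Replicate 2 was high and the others below 0. The choroid plexus and ependyma list, none of whose 19 genes was at the lowest value throughout, summed to 447 to 898 CPM in SG and to 200, 1370 and 208 CPM in YSGr, and the part of this tissue in the results was not tested. Of 12 muscle genes, Mybpc3 rose and the embryonic myosin Myh3 and the muscle factor Myog fell (6 called without YSGr replicate 3 with 1 higher and 5 lower). Myh3 was at 3.09, 3.16 and 2.79 in SG and at -0.73, -0.31 and 0.83 in YSGr, and fell by 3.09 (SE 0.44, adjusted p = 0.00502), and Myog was at 1.33, 2.17 and 0.89 and at -3.52, -3.52 and -0.60, where -3.52 is the lowest value of the table. The calls of Dcn, Cspg4, the 3 erythrocyte genes, Otx2, Rfx2 and Myog did not hold without 1 or more of the core libraries or YSGnr replicates 2 and 3, with adjusted p-values from 0.0537 to 0.185.

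The same fit compared YSGr with YSGnr, tumours with the same alleles. The length trend of YSGnr replicates 2 and 3, given above, touches this comparison. Its part was not tested beyond the fit with the length and GC trend removed, which gave 1758 calls. The YSGr libraries are shared with the comparison against SG, so the values are given side by side. The main fit called 910 genes (5.97%), 776 (5.09%) higher and 134 (0.879%) lower in YSGr. Of the 1608 calls of YSGr against SG, 452 were also called here in the same direction. Cbln3 was at 5.13, 4.49 and 4.89 in YSGnr, between the other groups, and was higher in YSGr by 1.63 (SE 0.18, adjusted p = 0.0158). Gabra6, at 4.61, 3.92 and 4.16 in YSGnr, was higher by 1.59 (adjusted p = 0.0267) and Eno2 by 1.43 (adjusted p = 0.0158). Olig3 was at 4.41, 5.11 and 5.49 in YSGnr and differed by -3.46 (adjusted p = 0.0158). Dtl, at 6.21, 6.28 and 6.27, differed by -1.26 (adjusted p = 0.0356). Other genes far below SG in YSGr stood as low in YSGnr. Pdlim3, at 4.56, 5.40 and 4.35 in YSGnr, differed between these 2 groups by -0.08 (adjusted p = 0.903). Ralgps2 differed by -0.17 (adjusted p = 0.351). Yap1 itself was at 2.79, 2.57 and 1.99, and its difference of 1.06 (SE 0.38) was not called (adjusted p = 0.0959), nor were those of Mag at 0.84 (adjusted p = 0.124), Hhip at -1.45 (adjusted p = 0.0715) and Ccnd1 at -1.46 (adjusted p = 0.097). Median differences from SG, YSGnr first and YSGr second, were -0.77 and -0.60 for stem cell genes and -0.62 and -0.60 for Notch genes. They were -0.72 and -0.47 for the Hippo core and 0.56 and 0.52 for glycolysis. The mature granule neuron list had 0.25 and 1.55, and the DNA replication list 0.36 and -0.72. The counts of this comparison were not stable: leaving out an SG library gave 8, 9 and 10 calls, leaving out a YSGr library gave 4, 1 and 6528, and leaving out a YSGnr library gave 4725, 1 and 2, each in the order of replicates 1, 2 and 3. Fitted on these 6 libraries only, limma called 0, with 3368 at an unadjusted p below 0.05. YSGnr replicate 1 had Xist at 10.81 and replicates 2 and 3 at -0.68 and -0.25, so the sex-linked pattern did not separate YSGr from YSGnr replicate 1.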

How the data were processed

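Total RNA of 9 tumour libraries, 3 per group, was sequenced on the DNBseq platform, per the labels' protocols. Per the submitters' processing notes, Trimmomatic, Bowtie2, RSEM, Picard and edgeR were used with the mm10 build, with no versions named. The deposited table holds log2 CPM values made by the authors, 3 columns per group. The lowest value is -3.52. Only low values above it were checked for whole reads, and 61.6 to 69.7% of them gave whole reads within 0.02 reads, so counts were not modelled.

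Differences were fitted with limma 3.58.1 in R 4.3.3, as group means over all 9 libraries, with empirical Bayes moderation, a trend of variance on the mean and two-sided p-values. Genes with log2 CPM above 0 in at least 3 libraries were tested, p-values were adjusted by Benjamini-Hochberg over them, and a gene was called at an adjusted p below 0.05. Gene coordinates are from GENCODE M21 (GRCm38).

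Named genes were Yap1, the sex-linked genes, the 15 largest changes each way that held in all 9 fits without 1 library, the 10 largest each way with a mean of at least 6 log2 CPM, and up to 6 called members of each list, or 2 with the smallest p where none was called. Predicted genes and pseudogenes were left out of the first sets, and some genes that the rule names are not reported here. Members and lists were chosen with earlier results of these data known. Alternatives were other filters, scalings, variance models, a pseudocount of 1 CPM, removal of the trend on transcript length and GC content, a replicate block, the 6 libraries alone and leaving out libraries.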

Additional observations from a re-analysis of the deposited data

How the results depend on the processing

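The count of 1608 calls of YSGr against SG depended on single libraries: leaving out 1 gave 328 to 4257 calls, with 244 to 2198 higher and 84 to 2059 lower. With array weights, whose estimation stopped before converging, there were 9661 calls (4700 higher, 4961 lower), and with 2 libraries left out together (replicate 3 of YSGr and replicate 1 of YSGnr) 7556 (3577 higher, 3979 lower). The 910 calls of YSGr against YSGnr became 1 to 6528 when 1 library was left out, 316 with median scaling, 0 with the 6 libraries alone, 568 with no mean-variance trend, 9967 with array weights, 1758 with the length and GC trend removed, 1538 with a replicate block and that trend removed, and 9867 with those 2 libraries left out. Under the replicate block YSGr against SG gave 1194 calls (763 higher, 431 lower). Same-numbered SG and YSGr libraries correlated at -0.03, -0.109 and -0.226 in their deviations from the group means. The values were 0.236, 0.106 and 0.046 between SG and YSGnr, and 0.231, -0.153 and 0.206 between YSGr and YSGnr. With 3 libraries per group they cannot decide whether equal numbers mark pairs, which was not tested. The causes of the shifts in the counts of calls were not tested. Of 179 named genes that were called, 69 were called in all 9 fits without 1 library and 0 changed direction under any alternative run. Cd4, not called, was between -0.74 and 0.16 when 1 library was left out, with the sign changed without YSGr replicate 2. Higher calls were 62.4% of all calls, and 58.5 to 59.1% under median scaling, quantile normalization and removal of the length and GC trend. Depth was 17.3 to 29.2 megareads (M) in the 6 libraries and 9.65 M in YSGnr replicate 1. The library size by which the values were scaled, recovered from them, was 18.1 to 32.3 M in the 6 libraries and 3.91 M in YSGnr replicate 1. That library had 824 genes at the lowest value, against 94 to 185 in the 6, and low genes are measured least precisely there.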
